A study of Mus musculus with 10 samples.

Results

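Cells sorted as Sox2-negative after 32 days of reprogramming factor expression were compared with established induced pluripotent stem cells (iPSC) on single-channel mouse Affymetrix arrays. The 4 arrays compared, of 10 in the series, were chosen by their titles: 2 of the Sox2-negative fraction and 2 of iPSC that had been co-cultured with mouse embryonic fibroblasts (MEFs). The Sox2-negative cells came from secondary MEFs that expressed the Yamanaka factors, and the series title names RNA FACS, in which cells are sorted by an RNA that they hold. The other 6 arrays were of a Sox2-positive fraction (2), of a day 32 sample with no fraction named (2), and of iPSC grown in 2i, a pair of kinase inhibitors, with serum (2). The labels do not say whether the MEFs were removed from the co-cultured iPSC before RNA was taken, and call all samples iPSC by cell type, whether they were sorted or not. Each group has n = 2, and nothing in the labels says that its replicates came from separate cultures. The p-values therefore describe only how far these samples lie apart, which may be technical. Permuting 2 arrays against 2 gives an exact p of at least 0.33, so the p-values below come from limma's model over all genes.

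As background, forced expression of the transcription factors Pou5f1 (Oct4), Sox2, Klf4 and Myc turns fibroblasts into iPSC in stages. Fibroblast genes are shut off and epithelial genes such as the cadherin Cdh1 are turned on early, while the cell's own Sox2 and the naive pluripotency genes, such as Zfp42 and Dppa5a, come on late. Secondary MEFs are fibroblasts that already carry inducible copies of the factors, and many of their cells never complete the sequence. In RNA from many cells, fewer cells of a kind and less RNA per cell cannot be told apart.

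All values are the deposited log2 expression values, and 8599 genes were tested. A value of 4 served as the limit under which a signal was treated as background. The upper quartile of all probe sets was 6.89 and 6.91 on the Sox2-negative arrays and 7.38 and 7.37 on the arrays of iPSC with MEFs, while the medians were between 4.27 and 4.33 on all 4. The 18S ribosomal control read 12.92 and 13.22 in the Sox2-negative fraction and 11.35 and 12.82 in iPSC with MEFs, against 5.25 to 6.55 on the arrays of iPSC in 2i and of the unfractionated day 32 sample, which therefore formed another array class. The gap between the 3' and 5' control probe sets was narrower in the Sox2-negative fraction (Actb 0.10 and 0.05, Gapdh 1.28 and 1.56) than in iPSC with MEFs (Actb 1.12 and 1.08, Gapdh 3.18 and 2.53). The part of this difference between the arrays in the results below was not tested. Replicates of the Sox2-negative fraction differed by a median of 0.41 per gene and by more than 2 in 192 genes, those of iPSC with MEFs by 0.25 and in 5 genes.

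The median difference over all genes, Sox2-negative fraction minus iPSC with MEFs, was -0.51. At an adjusted p under 0.05 from limma, 4087 genes (47.5% of those tested) were called, 1028 higher (12%) and 3059 lower (35.6%). Centring each array on its median left a median difference of -0.07 with 1633 higher and 1880 lower, and quantile normalization -0.02 with 1409 and 1494, so 25.2%, 46.5% and 48.5% of the calls were higher in the 3 scalings. Here a gene is said to have risen or fallen when it was called in the same direction in all 3 scalings. By this rule 2339 genes changed (27.2% of those tested), of which 1020 rose (11.9%) and 1319 fell (15.3%). Both Sox2-negative arrays lay above both arrays of iPSC with MEFs in 21.9% of genes and below both in 54% of genes. Without replicate a of iPSC with MEFs 493 genes rose and 563 fell, and without its replicate b 534 and 638. Differences and adjusted p-values below are those of the deposited values. Where every array of the lower group was under 4, the fold is given only as a lower bound above that limit. Where 1 of its arrays was under 4, the fold uses the deposited value, which is then uncertain.

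**Figure D1:**
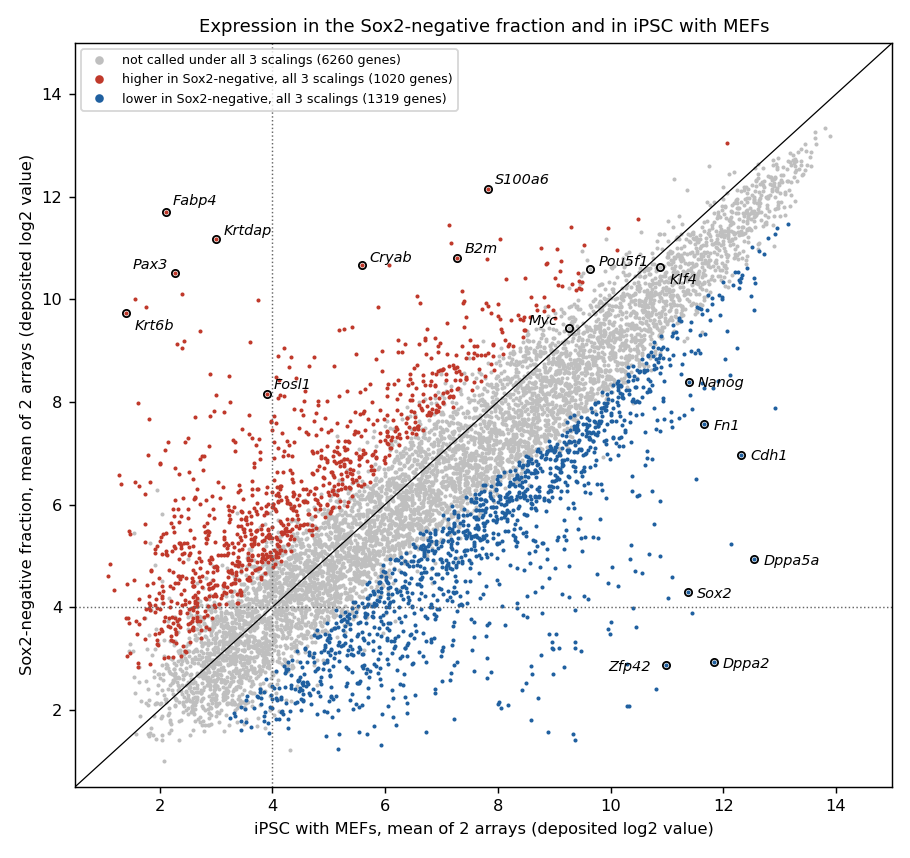
Mean deposited log2 value of each of 8599 genes in iPSC with MEFs (horizontal) and in the Sox2-negative fraction (vertical), each a mean of 2 arrays; red points rose and blue points fell in all 3 scalings, the solid line marks equal values and the dotted lines the limit of 4. The pluripotency genes Dppa2, Zfp42, Sox2 and Dppa5a lie far below the line, Fabp4, Krtdap, Pax3 and Krt6b far above it, and Pou5f1, Klf4 and Myc near it.

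Most of the 15 largest falls belonged to the pluripotency, germ line or DNA methylation lists. Sox2 read 11.24 and 11.50 in iPSC with MEFs and 4.45 and 4.13 in the Sox2-negative fraction. Both Sox2-negative arrays lay just above the limit of 4, a fall of 7.08 (SE 0.39, 135-fold, limma adjusted p = 8.89e-05), which describes the sort and tests nothing beyond it. Zfp42 (Rex1), a zinc finger marker of naive cells, read 10.91 and 11.07 against 2.47 and 3.27. It was under the limit on both Sox2-negative arrays and at least 127-fold lower (limma adjusted p = 8.89e-05). Dppa5a, an RNA-binding protein gene of undifferentiated cells, read 12.40 and 12.70 against 3.73 and 6.13, a 197-fold fall with a wide gap between the Sox2-negative replicates. Dppa2, a chromatin-associated pluripotency factor, was at least 228-fold lower (11.95 and 11.72 against 2.40 and 3.45). Dppa3 (Stella), a germ line and early embryo protein, was at least 79.9-fold lower, and Klf5, a Kruppel-like factor of the naive network, 90.5-fold lower (11.03 and 11.15 against 4.03 and 5.15). The TGF-beta family ligand Gdf3 fell 85.0-fold and the Hedgehog pathway factor Gli2 at least 62.0-fold. The others among the 15 largest falls included Pla2g1b (at least 112-fold), a secreted phospholipase, Rpp25 (114-fold), a ribonuclease P subunit, and Fblim1 (at least 63.6-fold), an adhesion protein.

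Nearly all naive and general pluripotency genes fell. Of 16 measured naive pluripotency genes 15 fell and 0 rose, with a median difference of -5.82 beside -0.51 over all genes. Of 18 general pluripotency genes 16 fell and 0 rose, with a median of -5.22, and these counts include Sox2, which describes the sort. Some genes stand in more than 1 list, so the lists are not independent. Zfp42 and Esrrb are in both of these, Otx2 in the general and primed lists, and Dnmt3b and Dnmt3l also in the DNA methylation list. The nuclear receptor Esrrb read 10.22 and 9.79 against 4.24 and 3.20, a difference of -6.29 (SE 0.49). Tfcp2l1, a grainyhead family factor of naive cells, was at least 22.6-fold lower, Klf2 at least 36.1-fold and the T-box factor Tbx3 43.1-fold (limma adjusted p = 9.85e-05 for each). The homeobox factor Nanog fell less far, from 11.23 and 11.54 to 8.86 and 7.92. Both Sox2-negative values stayed well above the limit, and the fall was 7.97-fold (limma adjusted p = 4.34e-04). Klf4 was the 1 naive gene of the list that did not fall when read by the probe set with the higher mean over all arrays, and its other probe set was lower by 6.35. Among the general genes Pou5f1 did not fall, and Rif1 (difference -0.82) was called lower in the deposited values but not in all 3 scalings, and lost that call without any of the 4 arrays (limma adjusted p = 0.0553 to 0.148).

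Genes of the later, primed epiblast were low as well. Of 8 measured, 5 fell and 1 rose, with a median difference of -3.43, or -2.785 with values under 4 set to 4. Pou3f1 (Oct6), a POU factor of the epiblast, read 8.26 and 8.61 against 1.46 and 3.31, and the Nodal antagonist Lefty1 7.87 and 8.50 against 2.12 and 2.05. Both genes were under the limit on every Sox2-negative array, at least 21.6-fold and at least 18.2-fold lower. The ligand Nodal itself was 15-fold lower and the homeobox factor Otx2 at least 3.16-fold. Zic2, a zinc finger factor, rose 2.51-fold (limma adjusted p = 0.0190), a call lost without replicate b of the Sox2-negative fraction (adjusted p = 0.104) or replicate a of iPSC with MEFs (0.130).

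Of the other 3 reprogramming factors, none differed by the rule over all scalings. Pou5f1 read 9.51 and 9.75 in iPSC with MEFs and 10.06 and 11.11 in the Sox2-negative fraction. The Sox2-negative arrays were both higher, by 0.95 (SE 0.36, limma adjusted p = 0.0525), and the difference was called after median centring (1.39, adjusted p = 0.0134) and quantile normalization (1.58, adjusted p = 0.00901). Myc read 9.25 and 9.26 against 9.0 and 9.87, which overlap (difference 0.18, SE 0.96, limma adjusted p = 0.890). Without replicate b of the Sox2-negative fraction the Myc difference was -0.26. Klf4 read 11.06 and 10.71 against 10.39 and 10.85 by the probe set with the higher mean over all arrays (difference -0.27, SE 0.55, limma adjusted p = 0.709), and the difference was 0.17 after centring and 0.50 after quantile normalization. The other Klf4 probe set read 11.31 and 10.93 against 4.30 and 5.24, a difference of -6.35 (SE 0.59, limma adjusted p = 2.00e-04 over 14012 probe sets). The Klf4 probe sets thus gave unequal differences between the same groups. The tables used here do not say which part of a transcript a probe set reads, so transcripts of the inducible copies and of the endogenous genes could not be told apart for any of the factors.

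**Figure D2:**
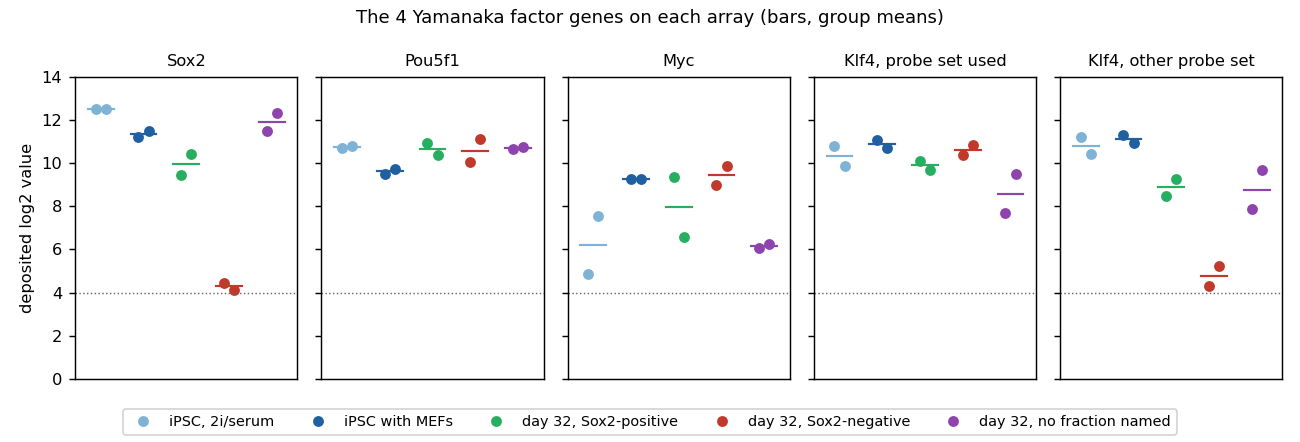
Deposited log2 values of Sox2, Pou5f1, Myc and the 2 probe sets of Klf4 on each of the 10 arrays, grouped by sample type; bars are group means and the dotted line is the limit of 4. Sox2 and the second Klf4 probe set are low in the Sox2-negative fraction (4.45 and 4.13, 4.30 and 5.24), while Pou5f1 and the first Klf4 probe set lie above 10 on both of its arrays.

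Germ line and chromatin genes that pluripotent cells express were lower too. Of 10 measured germ cell and 2-cell stage genes 6 fell and 0 rose (median difference -3.37). Of the 10, 8 were under the limit on both Sox2-negative arrays. With values under 4 set to 4 the median difference was -1.855, beside -0.315 over all genes. Trap1a, a tumour rejection antigen gene of the X chromosome, read 10.30 and 10.27 against 1.76 and 2.39, and Tex19.1, which represses transposons, 11.68 and 11.21 against 5.31 and 2.46. Trap1a was at least 78.0-fold lower. Tex19.1 was under the limit on Sox2-negative replicate b only, and with that value set to 4 its difference was -6.79. The zinc finger ATPase Morc1 was at least 16.2-fold lower and the helicase Ddx4 (Vasa) at least 6.61-fold. Of 17 measured DNA methylation and chromatin genes 10 fell and 0 rose (median -1.84), with 6 falls without either array of iPSC with MEFs. The de novo DNA methyltransferase Dnmt3b read 12.10 and 12.18 against 4.40 and 6.07, a 120-fold fall, and its cofactor Dnmt3l was at least 78.0-fold lower. The 5-methylcytosine dioxygenase Tet1 fell 21.5-fold (9.77 and 9.78 against 5.54 and 5.16), and the Polycomb subunit Eed 9.61-fold.

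With values under 4 set to 4, Fabp4, Krtdap and Pax3 showed the 3 largest rises. Fabp4, the fatty acid carrier of fat cells, read 2.16 and 2.05 in iPSC with MEFs and 12.15 and 11.25 in the Sox2-negative fraction. The groups were far apart, and the rise was at least 208-fold (difference 9.6, SE 0.65, limma adjusted p = 9.85e-05). Krtdap, a protein of differentiating keratinocytes, read 3.19 and 2.81 against 10.76 and 11.60 (at least 145-fold, limma adjusted p = 9.85e-05). Pax3, a paired-box factor of neural crest and muscle progenitors, read 2.10 and 2.46 against 10.43 and 10.59 (at least 91.1-fold, limma adjusted p = 4.42e-04). The forkhead factors Foxd1 (at least 68.4-fold) and Foxc1 (at least 33.2-fold), which act in embryonic mesenchyme, and the AP-2 factor Tfap2a (at least 41.6-fold), which acts in surface ectoderm and neural crest, were under the limit on both arrays of iPSC with MEFs. The stress keratin Krt6b read 8.32 and 11.13 against 1.43 and 1.36, so its rise of at least 52.9-fold carried a wide spread. The other large rises were the carboxylesterase Ces2g (at least 64.0-fold), the fetuin Fetub (75.6-fold), the myelin and lymphocyte protein Mal (at least 57.7-fold), the surface protein Cd109 (at least 36.3-fold), the annexin Anxa8 (at least 36.1-fold), the actin-binding protein Avil (at least 34.9-fold), the small heat shock protein Cryab (33.7-fold) and the nuclear factor Nfix (28.8-fold).

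**Figure D3:**
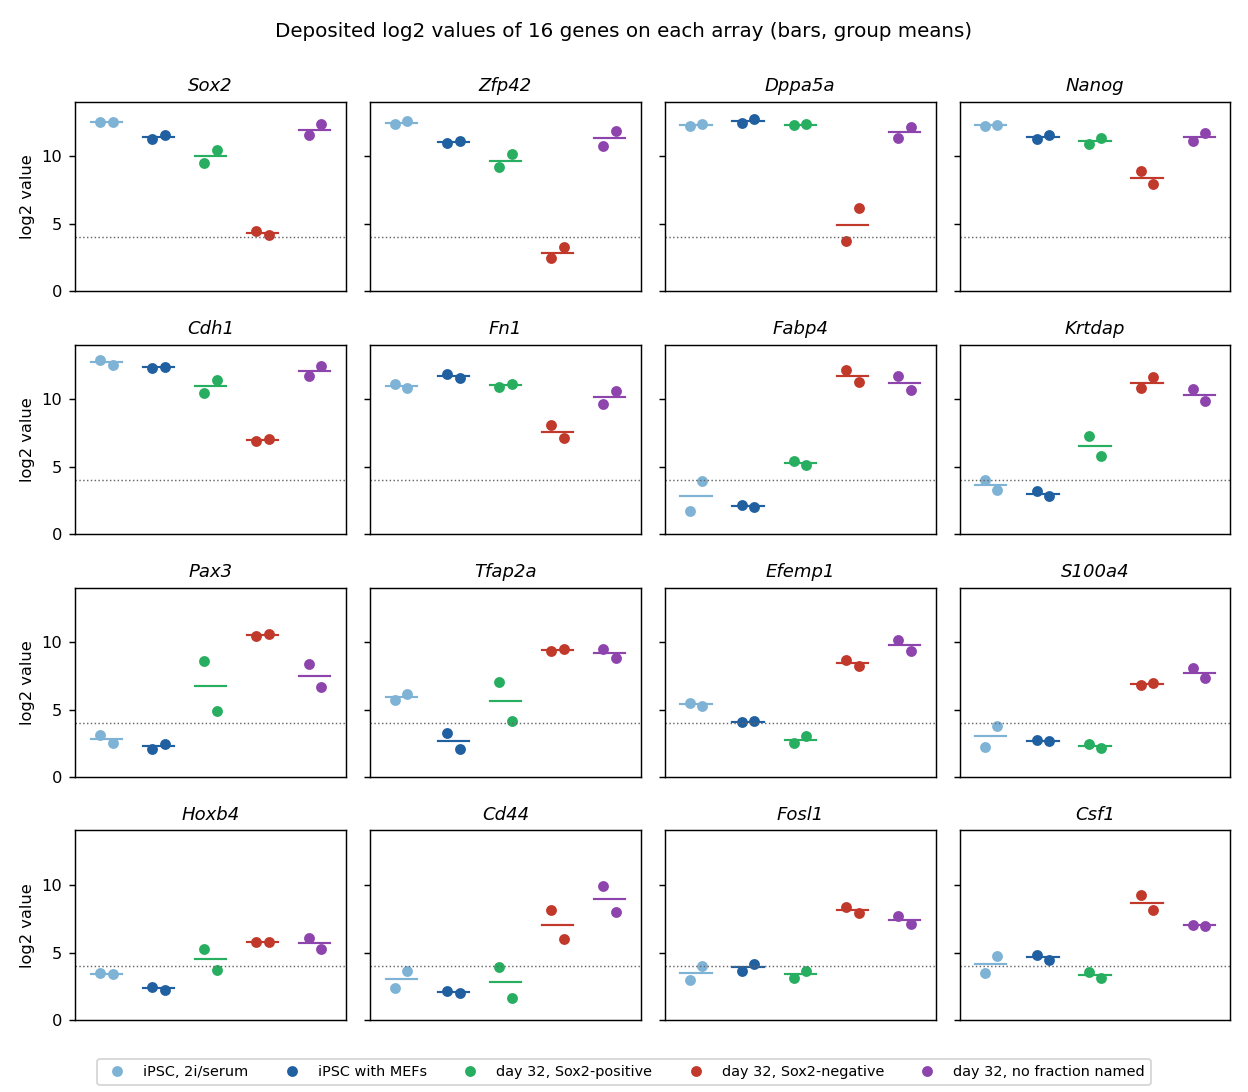
Deposited log2 values of 16 genes on each of the 10 arrays, grouped by sample type; points are arrays, bars are group means and the dotted line is the limit of 4. In the Sox2-negative fraction Sox2, Zfp42, Dppa5a, Nanog and Cdh1 lie below iPSC with MEFs, and Fabp4, Krtdap, Pax3 and Tfap2a read above 9 on both arrays, while in iPSC with MEFs these 4 genes are under the limit.

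The promoters of Krtdap, among the strongest rises, and of Zfp42 and Tex19.1, among the strongest falls, are shown as examples from both directions that hold searched motifs in the 250 bases before the gene start. Fblim1, Fetub and Nfix, also among the 30 largest rises and falls, each hold 1 of the motifs in 1 of their promoters and are not shown. The sequences are RefSeq's, build GRCm38.p6, written 5' to 3' along the gene. Capitals mark TGANTCA, the form bound by AP-1 factors, ATGCAAAT, the octamer bound by POU factors, and TATAAA, the TATA box, each on either strand.
Krtdap, chr7:30787655-30787904, plus strand: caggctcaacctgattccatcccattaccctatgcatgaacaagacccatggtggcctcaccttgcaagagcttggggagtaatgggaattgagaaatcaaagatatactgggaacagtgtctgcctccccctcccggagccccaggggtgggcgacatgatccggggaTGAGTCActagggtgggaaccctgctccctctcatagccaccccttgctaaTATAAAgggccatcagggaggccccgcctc
Zfp42, chr8:43307010-43307259, minus strand: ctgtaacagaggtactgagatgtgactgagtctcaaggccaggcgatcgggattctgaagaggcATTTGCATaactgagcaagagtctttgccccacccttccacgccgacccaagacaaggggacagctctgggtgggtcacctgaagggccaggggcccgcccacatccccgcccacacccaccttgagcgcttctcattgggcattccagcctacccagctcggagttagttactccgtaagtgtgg
Tex19.1, chr11:121145893-121146142, plus strand: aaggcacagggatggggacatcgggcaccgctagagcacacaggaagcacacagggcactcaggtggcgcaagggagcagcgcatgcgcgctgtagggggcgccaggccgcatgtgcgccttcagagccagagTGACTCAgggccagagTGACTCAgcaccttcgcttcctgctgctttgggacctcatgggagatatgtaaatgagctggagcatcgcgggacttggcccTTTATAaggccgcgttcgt
In Krtdap the AP-1 letters begin at -81 and the TATA box at -30 from the gene start. In Zfp42 the octamer begins at -186, on the strand opposite to the gene, and in Tex19.1 TGACTCA stands at -117 and at -101. Over windows of 300 bases (250 before and 50 after the start), TGANTCA was found in 6.87% of 1092 promoters of genes that rose, 3.89% of 1362 of genes that fell, 4.94% of 9095 of all genes tested and 7.81% of all 32851 promoters in the table. The octamer was found in 1.28% of promoters of genes that rose and 1.54% of those that fell, beside 1.28% of those tested, and TATAAA in 7.51% and 7.56% beside 7.07%. Of the 30 largest rises and falls 20 had a promoter in the table, and a match describes letters only.

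Most epithelial junction genes were lower, and a few desmosomal genes were higher. Of 26 measured epithelial junction genes 15 fell and 3 rose (median difference -2.11). Cdh1 (E-cadherin) read 12.30 and 12.33 in iPSC with MEFs and 6.88 and 7.07 in the Sox2-negative fraction, a 40.5-fold fall in which every array stayed above the limit (limma adjusted p = 9.85e-05). The adhesion protein Epcam fell 8.82-fold, the tight junction claudin Cldn6 20.7-fold, the polarity protein Crb3 16.4-fold and the grainyhead factor Grhl2 at least 13.8-fold. Desmosome genes were among the falls, with the cadherin Dsg2 10.6-fold, the plaque protein Jup 4.61-fold and Pkp2 8.97-fold lower. The 3 that rose, named after their values were seen, were the desmosomal plaque protein Dsp (8.81 and 8.73 against 11.11 and 10.90, 4.71-fold, limma adjusted p = 0.00351), the desmosomal cadherin Dsc2 (at least 2.39-fold) and the ETS factor Ehf, which stayed under the limit in both groups. The limma adjusted p of Dsc2 was 0.0504 without replicate a of iPSC with MEFs, 0.114 without its replicate b and 0.0768 without replicate b of the Sox2-negative fraction. Without replicate b of iPSC with MEFs 10 junction genes fell.

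Among 11 squamous and stress keratinocyte genes 4 rose and 0 fell (1 without replicate a of iPSC with MEFs, 2 without its replicate b). The array holds 25 genes of this list, and those outside the 11 did not pass the filter. The 4 that rose were Krt6b, the suprabasal keratin Krt10 (3.55 and 3.47 against 4.25 and 6.54), the basal keratin Krt14 and Perp. Krt14 stayed under the limit. Perp, a desmosome-associated p53 target, rose 4.30-fold (9.24 and 9.36 against 11.29 and 11.52). Perp lost its call without replicate a of iPSC with MEFs (limma adjusted p = 0.0585). The Krt10 difference of 1.89 was 0.74 without replicate b of the Sox2-negative fraction (limma adjusted p = 0.173) and lost its call without either array of iPSC with MEFs (0.115 and 0.125). Krt14 lost its call without any of the 4 arrays (0.0664 to 0.149). Of the defining keratinocyte markers, Krt5, Krt14, Trp63 and Sfn were under the limit on both Sox2-negative arrays, and Krt6a read 4.01 and 1.64. The simple epithelial keratin Krt8 read 8.19 and 7.93, beside 7.57 and 7.88 in iPSC with MEFs, and of 4 simple keratins 1, Krt19, met the rule for a rise while under the limit in both groups. Krt19 lost its call with any of the 4 arrays left out (limma adjusted p = 0.0705 to 0.185), and with the replicate block 0 simple keratins rose and 1 fell.

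Some mesenchymal genes rose, while several defining fibroblast markers were under the limit. Of 27 fibroblast and mesenchymal genes 10 rose and 4 fell (median difference 1.07), and 6 and 4 rose without replicate a and without replicate b of iPSC with MEFs. With values under 4 set to 4 the median difference of this list was 0.12, beside -0.315 over all genes. Efemp1, a fibulin of the extracellular matrix, read 4.05 and 4.18 against 8.65 and 8.21, a 19.9-fold rise (limma adjusted p = 9.85e-05). The calcium-binding protein S100a4 read 2.77 and 2.67 against 6.82 and 6.96 (at least 7.41-fold), and Loxl1, which crosslinks collagen, was 2.65 higher on the log2 scale (at least 2.75-fold). Fibronectin, Fn1, went the other way, from 11.82 and 11.50 to 8.04 and 7.09 (17.1-fold lower, limma adjusted p = 2.09e-04), and the basement membrane protein Nid2 fell 14.1-fold. Of the 8 fibroblast markers 4, namely Thy1, Pdgfra, Col1a2 and Dcn, were under the limit on both Sox2-negative arrays. The homeobox factor Prrx1 alone exceeded it on both, at 8.42 and 4.46 against 2.05 and 1.62. Its rise was called (limma adjusted p = 0.0188), but the adjusted p was 0.117 without replicate a of the Sox2-negative fraction, where the difference of 4.61 became 2.63, and 0.0727 and 0.0915 without either array of iPSC with MEFs. Of 8 transcription factors of epithelial-mesenchymal transition 4 rose and 0 fell, and 1 rose without either array of iPSC with MEFs. The mesenchymal factors Twist2 and Foxc2 were also called higher, at values close to the limit (4.15 and 3.81, and 3.58 and 4.23), and lost the call without replicate b (Twist2, limma adjusted p = 0.0533) or replicate a (Foxc2, 0.0703) of iPSC with MEFs.

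Collagens moved in both directions. Of 13 measured 7 rose and 3 fell (median difference 1.15, or 0.12 with values under 4 set to 4). The basement membrane collagens Col4a1 (5.93 and 5.83 against 9.65 and 10.05) and Col4a2 (4.84 and 3.82 against 8.68 and 9.08) rose 15.7-fold and 23.4-fold. In the Sox2-positive fraction Col4a1 read 9.78 and 7.64 and Col4a2 8.57 and 7.51. Neither was called between the fractions (limma adjusted p = 0.396 and 0.498). Of the 13 collagens 3 were called higher and 1 lower than in the Sox2-positive fraction. In iPSC in 2i, of the other array class, Col4a1 read 7.19 and 9.67 and Col4a2 6.62 and 9.21. The microfibrillar Col6a1 and Col6a3 rose at least 3.60-fold and at least 1.09-fold. The fibrillar collagen genes Col1a1 and Col1a2 fell, by 3.17 and 3.42, and Col18a1, of basement membranes, fell 14.9-fold. The fibrillar Col5a2 rose, from 3.99 and 3.19 to 6.95 and 8.54 (at least 13.4-fold, limma adjusted p = 0.0210). Its adjusted p was 0.110 without replicate b of the Sox2-negative fraction, and 0.0670 and 0.110 without replicate a and replicate b of iPSC with MEFs. Col1a1 read 7.49 and 7.43 in iPSC with MEFs and 3.16 and 5.43 in the Sox2-negative fraction. Its call was lost without replicate a of the Sox2-negative fraction (limma adjusted p = 0.0736, difference -2.03) and without either array of iPSC with MEFs (0.0629 and 0.0572). In iPSC with MEFs the fibroblast marker Col1a2 (5.59 and 5.27) and the smooth muscle actin Acta2 (8.50 and 8.13) were above the limit. The fibroblast marker Thy1 (4.24 and 3.98), which did not pass the filter, was above it on replicate a only. The part of feeder RNA in the collagen falls was not tested. In iPSC in 2i, of the other array class, Col1a2 read 2.45 and 2.44, Thy1 3.46 and 3.84 and Acta2 2.71 and 8.03. Acta2 read 5.82 and 7.40 in the Sox2-negative fraction, a difference of -1.71 that was not called (SE 1.34, limma adjusted p = 0.315). The smooth muscle list, given next, is too short to set its counts apart from the shares over all genes, 11.9% higher and 15.3% lower. Of 12 smooth muscle genes 2 rose and 3 fell, with 1 rise when any of the 4 arrays was left out and 1 fall without replicate b of either group, and with the actin-binding caldesmon Cald1 7.92-fold higher.

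Some fat cell and detoxification genes rose, while the falls in both lists lay near the share over all genes. Over all genes 11.9% rose and 15.3% fell. Of 20 measured fat cell and lipid handling genes 7 rose and 3 fell (median difference 0.40, or 0.105 with values under 4 set to 4). Besides Fabp4, the nuclear receptor Pparg read 2.40 and 2.16 against 5.79 and 6.38 (at least 4.24-fold), the fatty acid transporter Cd36 1.52 and 1.76 against 7.29 and 5.44 (at least 5.15-fold) and the lipase Lpl 5.54 and 4.07 against 8.14 and 7.72 (8.72-fold). The muscle and embryonic carrier Fabp3 fell 33.6-fold. Adiponectin, Adipoq, a defining gene of mature fat cells, read 1.80 and 3.49, under the limit on both arrays. Of 26 detoxification genes 7 rose and 3 fell, with a median difference of -0.53 beside -0.51 over all genes. Without replicate a of iPSC with MEFs 4 rose and 1 fell, without its replicate b 0 fell, and without replicate a of the Sox2-negative fraction 1 fell. The glutathione transferase Mgst1 rose at least 23.2-fold (2.98 and 2.80 against 9.18 and 7.89) and the aldehyde dehydrogenases Aldh3a1 and Aldh1a1 at least 2.69-fold and at least 1.27-fold, while the heme oxygenase Hmox1 fell 5.52-fold.

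Most of the measured Hox and positional genes rose, and neural crest genes moved in both directions. Of the 13 measured Hox and positional genes 9 rose and 0 fell, with a median difference of 2.77, or 1.25 with values under 4 set to 4. The array holds 31 genes of this list, and those outside the 13 did not pass the filter. Genes under 4 in iPSC with MEFs passed the filter only through arrays of other groups, which in itself favours rises over falls. Without either array of iPSC with MEFs 4 of them rose, and 6 without replicate a of the Sox2-negative fraction. Hoxb4 read 2.48 and 2.26 against 5.80 and 5.76, Hoxa3 3.01 and 2.99 against 8.68 and 7.57, and the Hox cofactor Meis2 2.58 and 2.33 against 6.19 and 8.23. The Sox2-negative values were above the limit for these 3 genes and the values of iPSC with MEFs under it (at least 3.43-fold, at least 17.4-fold and at least 9.25-fold). The T-box factor Tbx15 rose at least 2.65-fold, and Hoxc8, although called, was under the limit in both groups. The neural crest list had a median difference of 0.16. Pax3, Tfap2a and the neurotrophin receptor gene Ngfr were the 3 of 9 that rose. The forkhead factor Foxd3, also a pluripotency gene, Erbb3 and the pigment cell factor Mitf were the 3 that fell, at least 2.02-fold, 2.58-fold and at least 2.67-fold. Mitf lost its call without replicate a of iPSC with MEFs (limma adjusted p = 0.0545), and another of its probe sets went the opposite way. Ngfr, 2.12-fold higher, lost its call without either array of iPSC with MEFs (0.0766 and 0.0509). Of 13 neural genes 2 rose, Stmn2 (4.45-fold) and Map2 (at least 2.88-fold), which encode microtubule proteins. The neurofilament genes Nefh (at least 8.88-fold) and Ina (at least 15.9-fold) were the 2 that fell. Both neural counts lie near the shares over all genes, 11.9% higher and 15.3% lower. Without replicate a of iPSC with MEFs Map2 was not called (limma adjusted p = 0.0531).

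Most annexins and S100 proteins, calcium-binding proteins of many differentiated cells, rose. Of 15 measured 10 rose and 1 fell (median difference 2.77 beside -0.51 over all genes), and without replicate b of iPSC with MEFs 7 to 1. S100a6 read 7.51 and 8.13 against 11.79 and 12.50, a 20.0-fold rise (limma adjusted p = 4.60e-04). S100a3 rose at least 3.06-fold and Anxa5 6.66-fold (4.77 and 4.51 against 7.79 and 6.96). The gene that fell was Anxa7 (difference -1.89), for which another probe set showed a difference of 0.06.

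Genes of secreted factors moved in both directions. Of 14 measured cytokine, chemokine and growth factor genes 7 rose and 5 fell (median difference 1.6), and 4 and 1 without replicate a of iPSC with MEFs, 4 and 2 without its replicate b, and 5 and 2 without replicate a of the Sox2-negative fraction. The array holds 35 genes of this list, and those outside the 14 did not pass the filter. With values under 4 set to 4 the list's median difference was 0.55. Csf1, the macrophage growth factor, read 4.82 and 4.48 against 9.26 and 8.12, a 16.4-fold rise, and Tnfaip2, a TNF-induced gene, 5.26 and 5.55 against 9.44 and 9.47 (16.6-fold). The chemokine Ccl7 rose at least 4.63-fold, and the platelet-derived growth factor Pdgfa fell 4.91-fold. The other falls were the chemokine Cxcl12 (at least 1.44-fold), the EGF family ligand Hbegf (at least 2.51-fold), Vegfa, a growth factor for vessels (at least 3.04-fold), and Tnfaip6, which was under the limit in both groups. Vegfa lost its call without replicate b of the Sox2-negative fraction (limma adjusted p = 0.0664) and without either array of iPSC with MEFs (0.0611 and 0.0534). The AP-1 subunit Fosl1 (Fra-1) read 3.62 and 4.18 against 8.36 and 7.93, a 19-fold rise (limma adjusted p = 2.09e-04), and Fosl2 rose at least 3.23-fold. The Fosl2 difference of 2.16 was 1.40 without replicate b of the Sox2-negative fraction. The phosphatase Dusp1, an early response gene, fell 9.61-fold. Over the list of 19 immediate early genes 3 rose and 1 fell, with a median difference of 0.17, and 1 rose without either array of iPSC with MEFs. Of 14 genes downstream of ERK 3 rose and 1 fell. The counts of the immediate early and ERK lists are too small to set apart from the shares over all genes, 11.9% higher and 15.3% lower. Among the ERK genes the pleckstrin homology gene Phlda1 was 6.96-fold higher and the ERK pathway inhibitor Spry1 at least 2.62-fold lower. B2m, the light chain of MHC class I, read 7.43 and 7.12 against 10.74 and 10.86 (11.5-fold higher). The interferon response list as a whole had 2 of 13 higher and 2 lower and a median difference of -0.55. Its counts lie near the shares over all genes, 11.9% higher and 15.3% lower.

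Several p53 targets and cell cycle inhibitors rose, while the number of cell cycle genes that were lower depended on the scaling. Of 25 p53 targets and cyclin-dependent kinase inhibitors 11 rose and 2 fell (median difference 0.62, or 0.06 with values under 4 set to 4). The growth arrest gene Btg2 read 5.71 and 5.58 against 8.51 and 7.99 (6.08-fold) and cyclin G1, Ccng1, rose 2.70-fold, with another probe set of Ccng1 in the opposite direction. The inhibitor gene Cdkn2a was called but read 3.95 and 4.05, at the limit. Cdkn1a (p21), named after its value was seen, read 9.38 and 9.69 against 10.98 and 11.12 (2.86-fold, limma adjusted p = 0.00651, and 0.0525 without replicate a of iPSC with MEFs). The growth factor binding protein Igfbp3 fell at least 5.86-fold. Of 34 cell cycle and DNA replication genes 24 were called lower in the deposited values but only 9 fell in all 3 scalings, at a median difference of -1.16. Cyclin E1, Ccne1, read 12.01 and 11.79 against 7.87 and 8.94 (11.3-fold lower), cyclin B2, Ccnb2, fell 7.19-fold, and the replication licensing genes Mcm3 and Cdt1 fell 3.22-fold and 3.53-fold. The 2 that rose were cyclin D2, Ccnd2 (7.21 and 7.12 against 11.26 and 10.92, 15.2-fold), and Ccne2 (2.02-fold). Ccnd2 lost its call without either array of iPSC with MEFs (limma adjusted p = 0.0558 and 0.0575), and Ccne2 without any of the 4 arrays (0.0953 to 0.152). In all 3 scalings 1 cell cycle gene fell without replicate a of iPSC with MEFs, 4 without its replicate b and 5 without replicate a of the Sox2-negative fraction. Without replicate a of iPSC with MEFs 7 of the p53 list rose.

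Few housekeeping genes changed in all 3 scalings, although many were called lower in the deposited values. Of 24 ribosomal protein genes 0 rose and 0 fell, and 7 were called lower in the deposited values (median difference -0.60 beside -0.51). Of 27 oxidative phosphorylation genes 1 fell and of 26 proteasome genes 3, with 0 rises in either list and medians of -0.81 and -0.97. In the deposited values 14 and 18 of them were called lower, beside 35.6% of all genes. Without replicate a of iPSC with MEFs 0 genes of these lists fell in all 3 scalings. Of 18 glycolysis genes 12 were called lower in the deposited values (median -1.13), while 2 fell and 1 rose in all 3 scalings. Among them the phosphofructokinases Pfkp (9.25 and 8.99 against 6.30 and 6.21, 7.29-fold) and Pfkl (3.86-fold) fell, and the muscle form Pfkm was called 1.92-fold higher (limma adjusted p = 0.0345). The Pfkm call was lost without replicate b of the Sox2-negative fraction (difference 0.61, limma adjusted p = 0.178) and without either array of iPSC with MEFs (0.163 and 0.0779).

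Counts of the smaller lists are given beside the shares over all genes, of which 11.9% rose and 15.3% fell. Of 20 measured imprinted genes 7 fell and 0 rose (median difference -0.82), with 4 falls without either array of iPSC with MEFs. The zinc finger gene Peg3 fell 4.17-fold and the placental growth regulator Phlda2 6.89-fold. Of 16 heat shock chaperones 2 rose and 3 fell, near the shares over all genes. The small heat shock protein Hspb1 was 8-fold lower and the co-chaperone Dnajb4 8.08-fold higher. The mesoderm list had 2 of 4 higher and 2 lower, the trophoblast list 1 of 8 higher and 2 lower, and the endothelial list 1 of 6 higher and 2 lower. These lists are too short to set their counts apart from the shares over all genes. Of 5 macrophage and blood cell genes 0 rose and 0 fell in all 3 scalings, and 2 were called lower in the deposited values.

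Surface proteins used to follow reprogramming moved in both directions. Of 16 measured 4 rose and 6 fell. The hyaluronan receptor Cd44 read 2.18 and 2.00 in iPSC with MEFs and 8.12 and 6.01 in the Sox2-negative fraction, at least 8.37-fold higher (limma adjusted p = 0.00282). The adhesion molecule Icam1 read 8.81 and 8.75 against 4.35 and 4.45, 20.8-fold lower (limma adjusted p = 6.27e-04). The groups did not overlap for either gene, and both were named after their values were seen. The integrin-associated protein Cd47 rose 9.25-fold, and the receptor tyrosine kinase Kit and the integrin Itga6 fell 7.46-fold and 5.26-fold, although another probe set of Itga6 showed a difference of 0.04.

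Signalling pathway genes moved in both directions. Of 10 measured Wnt response genes 5 fell and 2 rose (median difference -1.82), and 3 fell without replicate b of iPSC with MEFs. The Wnt targets Sp5 (7.07 and 6.93 against 2.26 and 2.85) and Axin2 (7.16 and 6.29 against 2.77 and 3.08) were at least 8-fold and at least 6.61-fold lower, and the receptor Fzd7 fell 6.99-fold. The 2 that rose were the ligand Wnt5a (1.85 and 2.17 against 8.11 and 5.51, at least 7.01-fold) and the factor Lef1 (at least 2.52-fold). Without replicate a of iPSC with MEFs their adjusted p from limma was 0.05003 and 0.0730. It was 0.0507 for Wnt5a without replicate a and 0.0632 for Lef1 without replicate b of the Sox2-negative fraction. Of 16 TGF-beta response genes 7 rose and 2 fell (median 1.04), and 4 rose without replicate b of iPSC with MEFs. With values under 4 set to 4 the median of the TGF-beta list was 0.085 and that of the Wnt list -1.2225. Tgfbi, a TGF-beta-induced matrix protein, read 3.95 and 2.5 against 8.92 and 8.10 (at least 22.8-fold higher), and Ltbp1, which stores latent TGF-beta, rose 6.13-fold. Tgfbi read 8.80 and 8.41 in iPSC in 2i, of the other array class. The inhibitory Smad7 and the pseudoreceptor Bambi fell 4.86-fold and 4.30-fold. The ligand Bmp4 fell at least 41.2-fold (9.46 and 9.27 against 3.65 and 3.01). It read 4.82 and 5.43 in the Sox2-positive fraction and was not called between the fractions (limma adjusted p = 0.107). In iPSC in 2i, of the other array class, Bmp4 read 4.97 and 7.09.

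**Figure D4:**
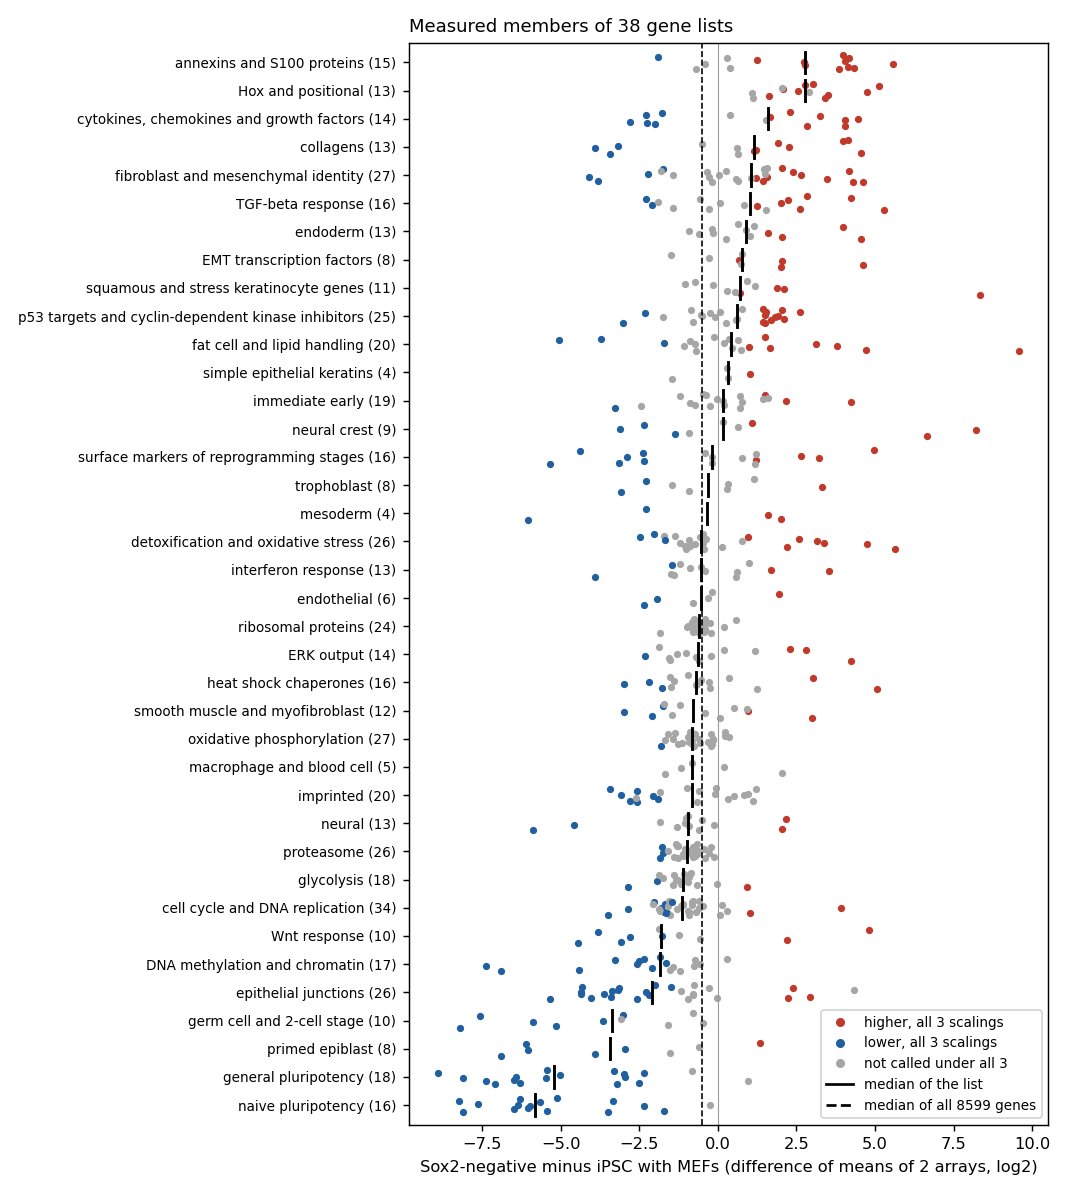
Difference in log2 value between the Sox2-negative fraction and iPSC with MEFs for each measured member of 38 gene lists (number of members in brackets), sorted by the list's median (bar); the dashed line is the median of all genes, -0.51. Naive and general pluripotency lists have the lowest medians, -5.82 and -5.22, and the Hox and annexin and S100 lists the highest, 2.77 each.

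Markers of other cell types were read on the same arrays, and any part of admixed cells in the results was not tested beyond these values. The macrophage markers Ptprc, Csf1r, Tyrobp and Spi1 and the endothelial markers Cdh5, Kdr, Tie1 and Emcn were under the limit on all 4 arrays, as were the neural markers Dcx, Pax6 and Sox1. Of the other markers in those lists, Cd68 read 4.16 and 4.17 and Tubb3 6.84 and 6.08 in the Sox2-negative fraction, below the 5.14 and 5.51, and 8.18 and 8.43, of iPSC with MEFs. Of the 6 pluripotent markers 3, namely Pou5f1, Sox2 and Nanog, exceeded the limit on both Sox2-negative arrays. The mean over those 6, Sox2 itself included, was 5.63 and 5.96 in the Sox2-negative fraction and 10.92 and 11.06 in iPSC with MEFs. The mean of the 4 fat cell markers was 6.97 and 7.21 in the Sox2-negative fraction and 3.0 and 2.55 in iPSC with MEFs. Those 4 include Fabp4, the largest rise (12.15 and 11.25), and Adipoq, under the limit on both Sox2-negative arrays (1.80 and 3.49). The mean of the 8 fibroblast markers was 3.59 and 3.65 in the Sox2-negative fraction and 3.87 and 3.82 in iPSC with MEFs. The endoderm list had 4 of 13 members higher and 0 lower. Of these Gata4 (3.89 and 4.49) and Foxa1 (2.85 and 4.49) stayed near the limit and the others were Col4a1 and Col4a2. Neither collagen was called between the Sox2-negative and Sox2-positive fractions. The Foxa1 difference of 2.04 was 1.22 without replicate b of the Sox2-negative fraction.

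The Sox2-positive fraction of the same day allowed the genes to be read against cells that had turned Sox2 on. Both comparisons use the same Sox2-negative arrays, so their values are given side by side. Between the fractions limma called 1076 genes (12.5% of those tested), 486 higher in the Sox2-negative fraction (5.65%) and 590 lower (6.86%), at a median difference of 0.02. Leaving out Sox2-positive replicate b reduced the 1076 calls to 404. Of the naive genes 11 of 16 were called lower than in the Sox2-positive fraction, and of the general pluripotency genes, Sox2 itself included, 15 of 18. Of the annexins and S100 proteins 8 of 15 were called higher, of the fibroblast list 7 of 27, of the Hox and positional genes 2 of 13 and of the p53 targets 1 of 25. Fabp4 read 5.43 and 5.14 in the Sox2-positive fraction (6.42 higher in the Sox2-negative, SE 0.65, limma adjusted p = 7.96e-04), Krt6b 2.19 and 3.25, Efemp1 2.55 and 3.02 and Csf1 3.58 and 3.13, all far below the Sox2-negative arrays.

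For other genes the Sox2-positive replicates stood apart from each other. Pax3 read 8.59 on replicate a and 4.89 on replicate b, Foxd1 8.22 and 4.21, Hoxa3 7.13 and 3.68 and Wnt5a 7.73 and 4.49. Replicate a was in each case the closer to the Sox2-negative fraction. The differences of the Sox2-negative fraction from the Sox2-positive were 3.77 for Pax3 (SE 0.99, limma adjusted p = 0.0396), 3.88 for Foxd1 (adjusted p = 0.0430), 2.72 for Hoxa3 (0.0772) and 0.70 for Wnt5a (0.724). In the unfractionated day 32 sample, measured in the other array class, Fabp4 read 11.68 and 10.68, Krtdap 10.74 and 9.83, Pax3 8.36 and 6.66, and Cd44 9.93 and 7.96, while Sox2 read 11.50 and 12.34 and Zfp42 10.75 and 11.81. The unfractionated sample thus read high for both gene groups. Its array class differs from that of the sorted fractions, so no comparison was made.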

How the data were processed

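The deposited values are log2 expression values of 22690 probe sets on 10 mouse Affymetrix arrays, made by the authors with GCRMA and the affy package, per the submitters' processing notes; their versions and whether all arrays were normalized together were not stated in the labels or file headers. Per the labels, RNA was taken with Trizol and amplified with either of the NuGEN Ovation kits named there, without saying which was used for which sample. GCRMA subtracts background by probe sequence, which compresses low values, and puts arrays that are normalized together on a shared scale. The upper quartiles differed between the groups compared (6.89 and 6.91 against 7.38 and 7.37), so a shared scale cannot be assumed for them. No probe-level intensity was used here, and the number of arrays limits the precision.

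Of the probe sets, 20380 carried 1 gene symbol, 691 several and 1555, besides 64 controls, none. Probe sets above 4 on at least 2 arrays were kept (14012), and the one with the highest mean stood for each of 8599 genes, of which 3445 had more than 1. A model with a mean per group over all 10 arrays was fitted with limma 3.58.1 in R 4.3.3 (lmFit, eBayes, Benjamini-Hochberg over all genes, threshold 0.05), on the deposited, median-centred and quantile-normalized values. It was tested on simulated data first.

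The members and gene lists were chosen with earlier results of these data known. Genes are named by rule: the 4 factors, the 15 largest rises and 15 largest falls called in all 3 scalings (values under 4 set to 4, predicted genes passed over), and from each list up to 5 called members in order of p. The rule also asked for up to 3 uncalled members of each list, but most of these are not named. Called members therefore make up a larger part of the named genes than of the lists. Genes outside it, namely Nanog, Zic2, Rif1, Dsp, Dsc2, Ehf, Dsg2, Jup, Pkp2, Col1a1, Col5a2, Hbegf, Vegfa, Tnfaip6, Acta2, Ngfr, Anxa7, Ccnd2, Ccne2, Cdkn1a, Pfkm, Cd44, Icam1, Wnt5a, Lef1 and several cell type markers, were chosen after their values were seen. The alternatives tried were other scalings, filters, probe set rules, array sets, array weights, a replicate block, another reference group and each array left out.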

Additional observations from a re-analysis of the deposited data

How the results depend on the processing

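Over all genes, centring gave 1633 higher and 1880 lower and quantile normalization 1494 lower. With iPSC in 2i, of the other array class, as the reference, 6404 genes were called (672 higher, 5732 lower). With each of the 4 arrays left out in turn, 2523 to 3536 were called (567 to 906 higher, 1956 to 2677 lower). In all 3 scalings it was 1056 to 1922 (493 to 884 higher, 563 to 1070 lower), the lowest without replicate a of iPSC with MEFs. Between the fractions, only the 4 arrays compared gave 323 calls (90 higher, 233 lower), and leaving out each array 404 to 1052 (174 to 488 higher, 230 to 564 lower). Klf4 turned to 0.17 with centring and 0.50 with quantile normalization, and Myc ranged from -0.26 to 0.62 with single arrays left out. Against iPSC in 2i the difference turned for Pou5f1 (-0.17), Klf4 (0.29), Acta2 (1.24), Cdkn2a (-1.29), Ccng1 (-0.53), Ccne2 (-0.47), Pfkm (-1.81), Tgfbi (-0.10), Stmn2 (-1.29), Krt14 (-0.78), Krt19 (-0.52) and Ngfr (-2.19). Relative to all genes, list medians turned for smooth muscle (0.14), endothelial (0.24), neural (0.27) and interferon genes (0.05) with values under 4 set to 4, and for mesoderm (-0.25), heat shock (0.10) and detoxification genes (0.16) with quantile normalization. The cause of these changes was not tested. Most genes named in the text were chosen by their difference or p on these same arrays, which in itself favours calls that are kept. Of 151 genes named in the text that were called in the deposited values, 129 kept their call with each of the 4 arrays left out, 22 lost it at least once and 0 changed sign.

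Replicate letters were not taken to pair the samples: deviations from the group mean of the Sox2-negative arrays correlated at 0.04 with those of iPSC with MEFs, 0.05 with the Sox2-positive fraction, 0.21 with the unfractionated day 32 arrays and 0.0023 with iPSC in 2i, and the rule asked for over 0.1 in every pair. With the letter as a replicate block 4061 genes were called (1042 higher, 3019 lower), 2338 in all 3 scalings, and 1180 between the fractions.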
